A study of Mus with 8 samples.

Results

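The 9 genes Ezh1, Ezh2, Eed, Suz12, Bmi1, Cbx2, Cbx7, Ring1 and Rnf2, the core of the 2 Polycomb repressive complexes, were followed by gene symbol among the 32285 genes of the files. All 9 were found, and all 9 passed the minimum for counting genes, which was at least 50 unique molecular identifiers (UMI, each standing for 1 captured RNA molecule) in at least 1 library of every pair compared. They were read in 35549 cells, those with at least 7500 gene UMI and at most 10% mitochondrial UMI. The question was how their RNA levels, and the ratio of Ezh1 to Ezh2, differed between newborn and 14 day old mice in each sorted fraction and genotype.

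Polycomb proteins keep genes silent through cell division. Polycomb repressive complex 2 (PRC2) puts methyl groups on a lysine of histone H3; its catalytic subunit is either Ezh2, the more active enzyme, known from dividing cells, or Ezh1, known from resting and differentiated cells, and both need Eed and Suz12. Polycomb repressive complex 1 (PRC1) puts ubiquitin on histone H2A through the ligases Ring1 and Rnf2; Bmi1 is a partner of the ligases, and Cbx2 and Cbx7 are alternative subunits that can read the methyl mark. In blood stem cells these genes are known for their roles in self-renewal, Bmi1 and Cbx7 among them, and a passage from Ezh2 to Ezh1 dependence has been described between fetal and adult blood formation.

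CITE-seq, in which RNA and antibody tags are counted in single cells, had been run on 8 libraries of sorted mouse blood progenitors. The fractions were Lin-Kit+ cells (LK), a mixture of progenitors, and Lin-Sca1+Kit+ cells (LSK), enriched in stem cells and early progenitors. The labels do not say that Sca1+ cells were left out of LK, so LK may hold LSK cells. Mice were newborn (P0, day 0) or 14 days old (P14), and either Ifnar+/- or Ifnar-/-, Ifnar being the receptor for type I interferons. No group was Ifnar+/+, so the controls also carried 1 mutant allele. Each of the 8 groups had 1 library, and the labels give neither the organ, the sex nor the number of animals behind it. No group has a replicate library and no test across libraries was run. The 4 pairs of each comparison are given one by one and are not replicates of each other. Their 95% intervals cover counting error only.

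The libraries held 2411 to 5891 cells and 100486590 to 302507736 gene UMI, with medians of 25597 to 46231 UMI per cell. Between 1 and 10 cell barcodes were shared by any 2 libraries, 148 in all. Kit, which marks both fractions, stood at 131 to 231 CPM (counts scaled to a total of 1e+06 gene UMI per library) in the 8 libraries, and Ly6a, the gene for Sca1, at 30.8 to 75.9 CPM in LSK and 1.54 to 11.2 CPM in LK. Ly6a was lower in Ifnar-/- than in Ifnar+/- in all 4 genotype pairs, with 30.8 against 75.9 CPM in P0 LSK. Ifnar1 stood at 14.7 to 23.5 CPM in LK and 29.4 to 36.9 CPM in LSK whatever the genotype label; the labels do not say which part of which Ifnar gene is deleted, so these 3' counts check nothing. The P0 LSK Ifnar-/- library stood apart: a stem list of 10 genes summed to 1017 CPM there, against 547 to 697 CPM in the other LSK libraries, and 1117 barcodes lay between 2000 and 7500 UMI, against 112 to 803 elsewhere. Counts over pairs, and the genes most like Ezh1 and Ezh2, are therefore also given without this library. Of 6 hepatocyte genes, Alb, Ttr and Serpina1e had UMI in every P0 library and were at 0 in all 4 P14 libraries. Apoa1 and Apoa2 were lower at P14 in every pair, while Afp was higher in every pair, at 1.87 to 5.98 CPM at P0 and 3.19 to 7.48 CPM at P14. The summed list went from 11.0 to 14.2 CPM at P0 to 5.07 to 9.12 CPM at P14. If the organ differed between the ages, that difference cannot be told apart from age. A macrophage list of 6 genes summed to 0.822 to 3.96 CPM and a T cell list of 3 genes to 0.139 to 0.352 CPM, with Cd3e at 0 throughout. Other lists were not near 0. A B cell list of 3 genes summed to 23.5 to 46.8 CPM, with Cd79b its top gene in every library. An endothelial list of 4 genes, led by Emcn, summed to 7.62 to 65.5 CPM and was highest in P0 LSK Ifnar-/-. An eosinophil list of 2 genes summed to 19.9 to 28.7 CPM in LK and 0.0507 to 0.304 CPM in LSK.

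With age, of the 4 core PRC2 genes Ezh1 stood higher at P14 by the widest margin, and it was higher in all 4 pairs, most in LK. Ezh2, Eed and Suz12 differed by at most 0.22 on the log2 scale. Of the PRC1 genes, Bmi1, Cbx2 and Cbx7 were higher at P14 in 3 of the 4 pairs, the exception being LSK Ifnar-/-, Ring1 was higher in all 4, and Rnf2 lay higher in LK and lower in LSK. In all 4 pairs 5 of the 9 genes were higher, beside 33.3% of all genes tested. In the 3 pairs without the P0 LSK Ifnar-/- library all but Rnf2 were higher, beside 48.9% of all genes. By pair, 9, 9, 8 and 5 of the 9 genes were higher in LK Ifnar+/-, LK Ifnar-/-, LSK Ifnar+/- and LSK Ifnar-/-. The shares of all genes were 64.6%, 65.3%, 58.1% and 43.0%. Above the median log2 ratio of all genes in the same pair lay 5, 6, 7 and 7 of the 9. These directions rest on CPM. Under the other scalings given below, Ezh2, Eed and Suz12 did not stay above 0 in every pair.

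Ezh1 (ENSMUSG00000006920, chr11:101191115-101226463 in the GRCm38.p6 assembly) had 1449 to 2824 UMI per library. In LK it stood at 9.34 CPM in Ifnar+/- and 8.11 CPM in Ifnar-/- at P0, and at 14.4 and 12.5 CPM at P14. In LSK the values were 14.97 CPM in Ifnar+/- and 18.8 CPM in Ifnar-/- at P0, and 20.6 and 21.3 CPM at P14. Within each fraction the 2 P14 libraries lay above the 2 P0 libraries with no overlap, and all 4 LSK libraries lay above all 4 LK libraries. In order of level, the P14 LK Ifnar+/- and P0 LSK Ifnar+/- libraries, and the 2 P14 LSK libraries, were neighbours whose intervals overlapped. The log2 ratio of P14 to P0 was 0.63 (0.53 to 0.72) in LK Ifnar+/-, 0.62 (0.53 to 0.71) in LK Ifnar-/-, 0.46 (0.38 to 0.54) in LSK Ifnar+/- and 0.18 (0.10 to 0.26) in LSK Ifnar-/-. These sums over cells cannot tell fewer cells of a type from less RNA per cell.

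CPM divide by all RNA of a library, and the median log2 ratio of P14 to P0 over the 13152 genes tested was not 0: it was 0.14 in both LK pairs, 0.07 in LSK Ifnar+/- and -0.05 in LSK Ifnar-/-. Scaling with the trimmed mean of M values (TMM) shifted the 4 ratios by -0.17, -0.18, -0.10 and 0.02, and median-of-ratios scaling by -0.19, -0.21, -0.10 and 0.03. Ezh1 stayed above 0 in every pair, at 0.46, 0.44, 0.36 and 0.20 under TMM and at 0.44, 0.41, 0.36 and 0.21 under median-of-ratios scaling. Under both scalings its LK ratios no longer passed 1.5-fold, which is 0.585 on the log2 scale.

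**Figure D1:**
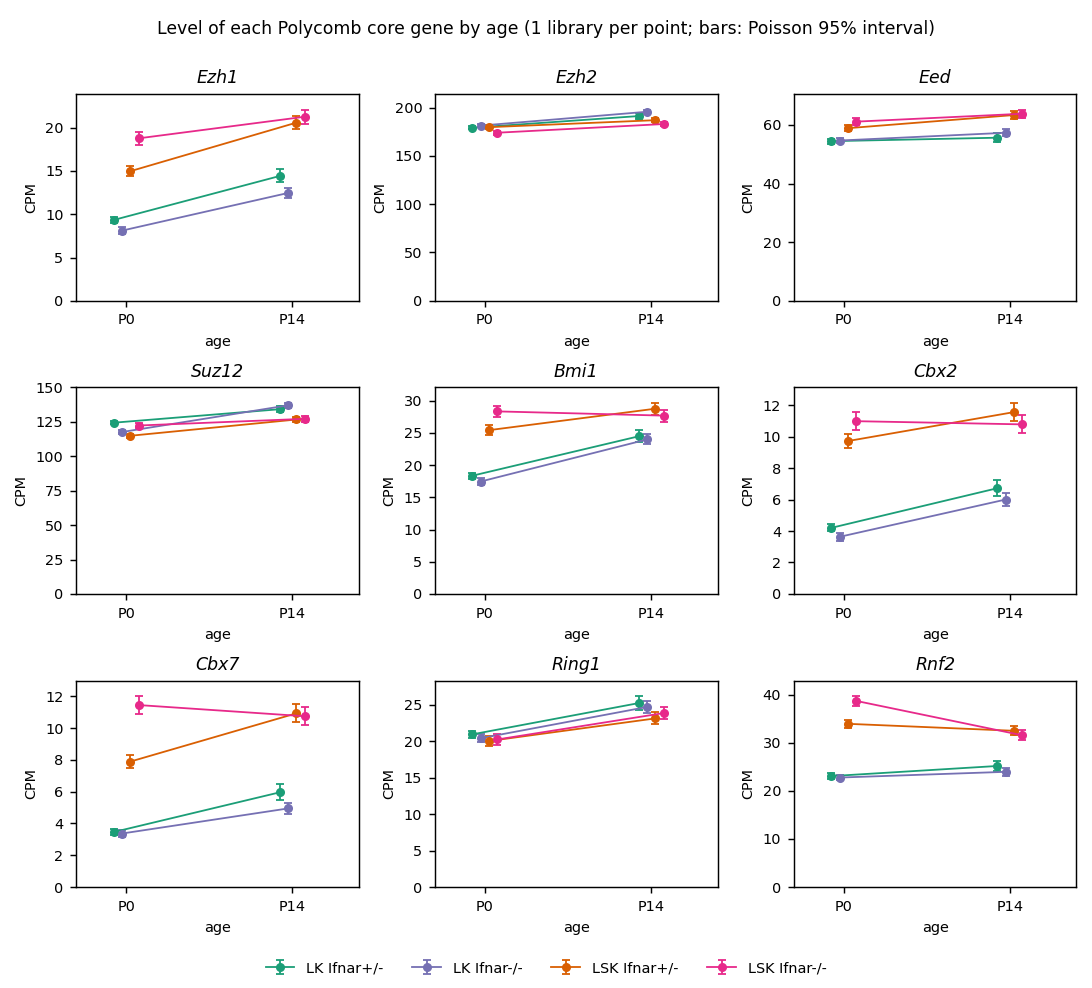
CPM (vertical axis, linear from 0) of each of the 9 genes at P0 and P14 (horizontal axis); each point is 1 library with its exact Poisson 95% interval, and a line joins the P0 and P14 libraries of 1 fraction and genotype. Ezh1 is higher at P14 on all 4 lines, from 8.11 to 18.8 CPM at P0 to 12.5 to 21.3 CPM at P14, while the lines for Ezh2 are close to flat.

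Ezh2 (ENSMUSG00000029687, chr6:47530274-47595270) had 19214 to 54184 UMI per library. At P0 its level was 179 CPM in LK Ifnar+/-, 181 in LK Ifnar-/-, 179.7 in LSK Ifnar+/- and 174 in LSK Ifnar-/-. At P14 the same 4 groups stood at 191, 196, 187 and 183 CPM. The highest library was 1.13 times the lowest, and 6 of the 7 neighbours in order of level had overlapping intervals. The log2 ratios of P14 to P0 were 0.09, 0.11, 0.06 and 0.07 in LK Ifnar+/-, LK Ifnar-/-, LSK Ifnar+/- and LSK Ifnar-/-, but under TMM they were -0.08, -0.07, -0.04 and 0.10, so the first 3 have no direction that holds across scalings. An overlapping long noncoding gene, F830010H11Rik, lies at this locus, and the strand setting of the counting is not given in the sources used here.

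Eed (ENSMUSG00000030619, chr7:89954654-89980976), the subunit that binds the methyl mark, ranged from 54.4 to 63.8 CPM. Its log2 ratios of P14 to P0 were 0.03, 0.07, 0.11 and 0.06 in the same order, and under TMM they were -0.14, -0.11, 0.01 and 0.08. Suz12 (ENSMUSG00000017548, chr11:79993106-80034123), which holds the complex together, ranged from 115 to 137 CPM, with log2 ratios of 0.11, 0.22, 0.14 and 0.06, or -0.06, 0.04, 0.04 and 0.08 under TMM. Eed was thus above 0 under both of these scalings in the 2 LSK pairs and changed sign in the 2 LK pairs, and Suz12 changed sign in LK Ifnar+/- alone.

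The ratio of Ezh1 to Ezh2 within a library needs no scaling. The 3' UMI of 2 genes are not amounts of transcript, so the share is compared between libraries and not with 50%. Ezh1 made up 4.95% (4.78 to 5.13) of Ezh1 plus Ezh2 UMI in LK Ifnar+/- and 4.28% (4.09 to 4.47) in LK Ifnar-/- at P0, against 7.01% (6.67 to 7.37) and 5.99% (5.73 to 6.26) at P14. In LSK the share was 7.69% (7.41 to 7.97) in Ifnar+/- and 9.74% (9.38 to 10.1) in Ifnar-/- at P0, against 9.92% (9.57 to 10.3) and 10.4% (10.04 to 10.8) at P14. The P14 library was the higher in each pair, by little in LSK Ifnar-/-. In LK Ifnar+/- the log2 of Ezh1 over Ezh2 was 0.53 (0.44 to 0.63) higher at P14, and in LK Ifnar-/- it was 0.51 (0.42 to 0.60) higher. The difference was 0.40 (0.32 to 0.48) in LSK Ifnar+/- and 0.11 (0.02 to 0.19) in LSK Ifnar-/-, the pair that uses the library that stood apart. Per Ezh1 UMI there were 19.2 Ezh2 UMI in P0 LK Ifnar+/- and 13.3 in P14 LK Ifnar+/-, and 12.0 in P0 LSK Ifnar+/- and 9.08 in P14 LSK Ifnar+/-.

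**Figure D2:**
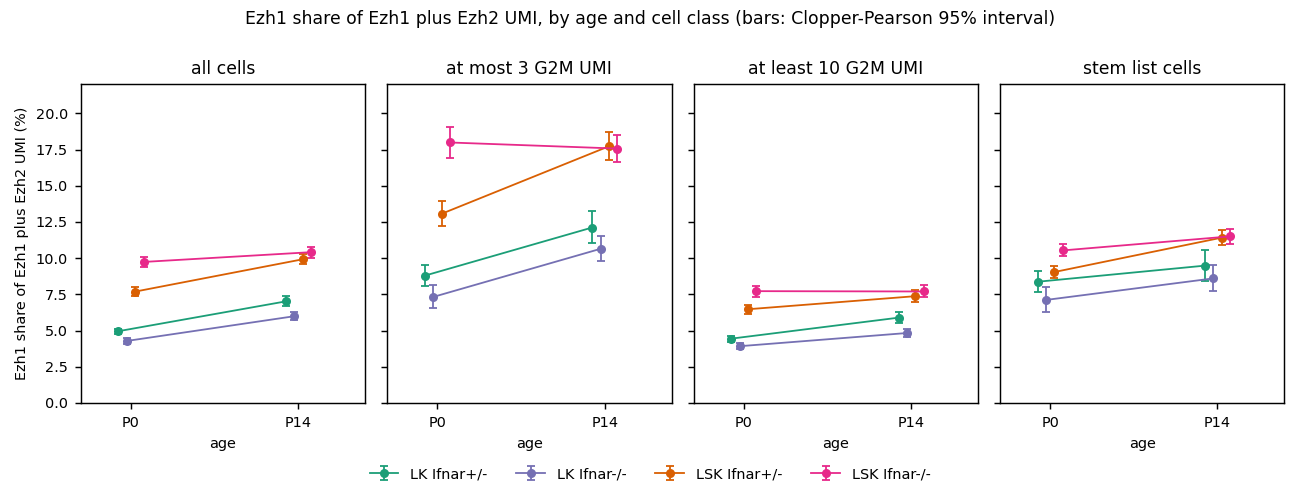
Ezh1 share of Ezh1 plus Ezh2 UMI (vertical axis, percent) at P0 and P14 (horizontal axis) in all cells, in cells with at most 3 and at least 10 UMI of a G2M list, and in cells rich in stem list RNA; points are single libraries with exact Clopper-Pearson 95% intervals. The share is higher at P14 on all 4 lines in the panels of all cells and of stem list cells, and on 3 of 4 in the 2 G2M panels, where the LSK Ifnar-/- line is close to flat.

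Among the PRC1 genes, Bmi1 (ENSMUSG00000026739, chr2:18677018-18686629) stood at 18.4 and 17.5 CPM in the P0 LK libraries (Ifnar+/- first) and at 24.5 and 24.0 CPM in the P14 LK libraries. In LSK it stood at 25.4 and 28.3 CPM at P0 and at 28.8 and 27.7 CPM at P14. The LK libraries separated by age and the LSK libraries did not. Its log2 ratios were 0.41 (0.35 to 0.48), 0.46 (0.39 to 0.52), 0.18 (0.11 to 0.24) and -0.03 (-0.10 to 0.03) for LK Ifnar+/-, LK Ifnar-/-, LSK Ifnar+/- and LSK Ifnar-/-.

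The 2 ligases differed from each other. Ring1 (ENSMUSG00000024325, chr17:34020792-34024680) stood at 20.04 to 21.0 CPM in the 4 P0 libraries and 23.1 to 25.2 CPM in the 4 P14 libraries, with no overlap between the ages. Its log2 ratios lay between 0.21 and 0.28 in the 4 pairs, and between 0.10 and 0.26 under TMM. Rnf2 (ENSMUSG00000026484, chr1:151469398-151500991) stood at 23.1 and 22.8 CPM in P0 LK and at 25.2 and 24.0 CPM in P14 LK, Ifnar+/- first. In LSK it stood at 33.9 and 38.7 CPM at P0 and at 32.5 and 31.5 CPM at P14. The log2 ratios of Rnf2 were 0.13 (0.06 to 0.19) and 0.07 (0.01 to 0.13) in LK, and -0.06 (-0.12 to -0.01) and -0.29 (-0.35 to -0.24) in LSK. Under TMM its LK ratios turned to -0.04 and -0.10, and its LSK ratios were -0.16 and -0.27. The opposite signs of Rnf2 in the 2 fractions thus rest on scaling to total UMI. Both LSK ratios lay below both LK ratios with either scaling.

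Cbx2 (ENSMUSG00000025577, chr11:119023019-119031275) stood at 4.20 and 3.63 CPM in P0 LK and at 6.73 and 6.01 CPM in P14 LK, Ifnar+/- first. In LSK it stood at 9.73 and 11.0 CPM at P0 and at 11.6 and 10.8 CPM at P14. Ages did not overlap in LK and did in LSK. The log2 ratios of Cbx2 were 0.68 (0.54 to 0.81), 0.73 (0.59 to 0.86), 0.25 (0.15 to 0.35) and -0.03 (-0.13 to 0.08) in LK Ifnar+/-, LK Ifnar-/-, LSK Ifnar+/- and LSK Ifnar-/-. Cbx7 (ENSMUSG00000053411, chr15:79915804-79971143) stood at 3.46 and 3.37 CPM in newborn LK cells and at 5.96 and 4.95 CPM at P14. In LSK its values were 7.89 and 11.5 CPM in newborns, then 10.9 and 10.7 CPM. Its highest level was in P0 LSK Ifnar-/-, and the other 3 pairs had the higher value at P14. For Cbx7 the log2 ratios were 0.79 (0.64 to 0.93), 0.56 (0.41 to 0.70), 0.47 (0.36 to 0.58) and -0.09 (-0.20 to 0.01). In the annotation, Cbx2 overlaps the noncoding gene Gm35829 and Cbx7 overlaps the protein coding gene Apobec3, so reads of each pair may not be fully separated. Neither the strands of these genes nor the strand setting of the counting is given here. The share of Cbx7 in Cbx7 plus Cbx2 UMI was 44.8% to 51.0% in the 8 libraries, and the interval of its log2 change with age excluded 0 in LSK Ifnar+/- alone, at 0.22 (0.07 to 0.37).

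None of the 9 genes was at least 1.5-fold higher at P14 in all 4 pairs, against 3.24% of all genes tested, and none was at least 1.5-fold lower in all 4, against 2.58%. In LK Ifnar+/- alone 3 of the 9 were at least 1.5-fold higher, Ezh1, Cbx2 and Cbx7, against 16.6% of all genes, and in LK Ifnar-/- alone 2 were, Ezh1 and Cbx2, against 15.6%. Under TMM the counts were 1, Cbx7, against 10.7% of all genes, and 0 against 9.71%. Median-of-ratios scaling also left 1, Cbx7, against 10.1%, and 0 against 8.98%. Cbx2 stood at 0.51 and 0.55 under TMM in these 2 pairs, short of the 0.585 that 1.5-fold needs. Neither LSK pair had a Polycomb core gene past 1.5-fold in that direction, where 9.63% of all genes passed in Ifnar+/- and 6.12% in Ifnar-/-. In the lower direction no core gene passed in any pair, against 5.57% and 5.1% of all genes in the LK pairs and 6.52% and 10.4% in the LSK pairs, Ifnar+/- first in each. Over the 3 pairs without the P0 LSK Ifnar-/- library the count of core genes was also 0, beside 6.67% of all genes higher and 2.89% lower. The median log2 ratio of the 9 genes was 0.27, 0.28, 0.18 and 0.06 in LK Ifnar+/-, LK Ifnar-/-, LSK Ifnar+/- and LSK Ifnar-/-, beside 0.14, 0.14, 0.07 and -0.05 over all genes.

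**Figure D3:**
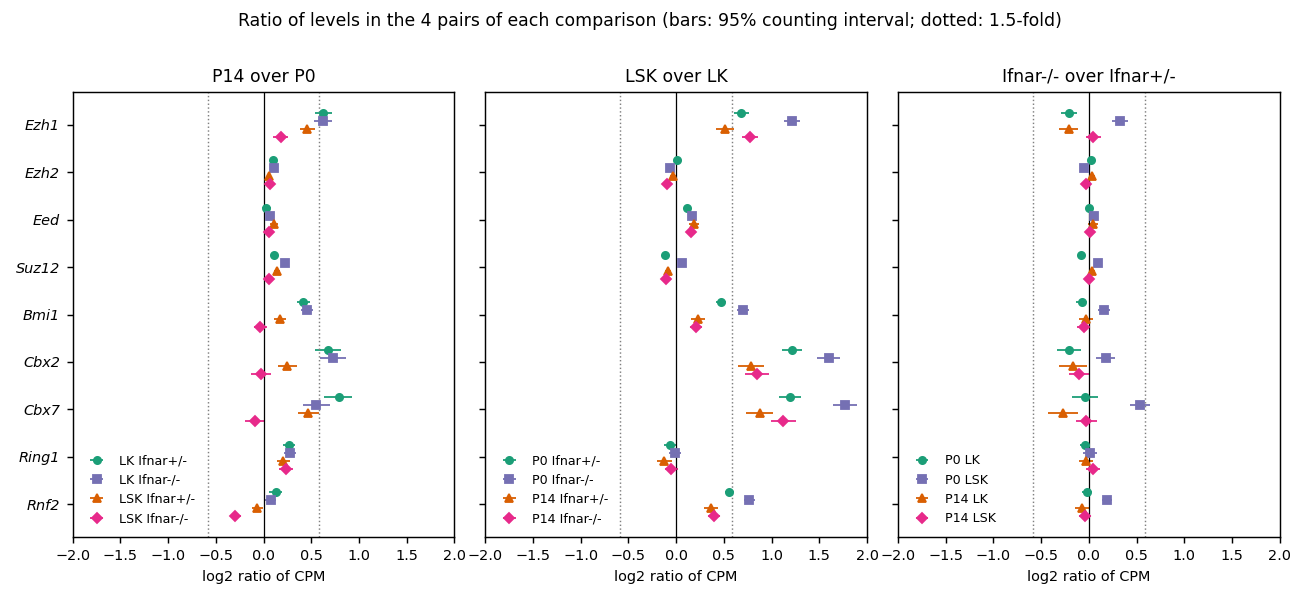
Log2 ratio of CPM (horizontal axis) of the 9 genes (vertical axis) in the 4 pairs of the age, fraction and genotype comparisons; bars are exact 95% counting intervals and dotted lines mark 1.5-fold. Cbx2 and Cbx7 lie past the dotted line in all 4 fraction pairs, none of the 9 genes does in all 4 age pairs, and all genotype values lie between the dotted lines.

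Between the fractions, Cbx2, Cbx7 and Ezh1 were higher in LSK than in LK at both ages and in both genotypes, followed by Rnf2 and Bmi1, while Ezh2, Suz12 and Ring1 lay between -0.13 and 0.06 and Eed between 0.11 and 0.19 on the log2 scale. Taking first the newborn and then the P14 pairs, with Ifnar+/- before Ifnar-/- at each age, the log2 ratio of LSK to LK of Cbx7 was 1.19, 1.77, 0.87 and 1.12, and that of Cbx2 was 1.21, 1.60, 0.78 and 0.84. Ezh1 had ratios of 0.68, 1.21, 0.51 and 0.77, Rnf2 of 0.56, 0.77, 0.37 and 0.40, and Bmi1 of 0.47, 0.70, 0.23 and 0.21. The median over all 13328 genes tested was 0.25, 0.43, 0.18 and 0.23. Under TMM, Cbx7, Cbx2, Ezh1 and Rnf2 stayed above 0 in all 4 pairs, with ranges of 0.69 to 1.35, 0.60 to 1.18, 0.33 to 0.79 and 0.18 to 0.35, Bmi1 was at -0.01 in P14 Ifnar-/-, and Ezh2 lay between -0.48 and -0.21.

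At least 1.5-fold higher in LSK in all 4 pairs were Cbx2 and Cbx7, 2 of the 9 genes, against 20.5% of all genes tested. Cbx7 alone passed under median-of-ratios scaling, against 13.9% of all genes, where Cbx2 in P14 Ifnar+/- stood at 0.57, and with equal weight per cell, against 16.4%. None was lower by 1.5-fold or more in every pair, against 4.43% of all genes. Cbx2 and Cbx7 also passed in the 3 pairs without the P0 LSK Ifnar-/- library, beside 21.1% of all genes, and none was lower there, beside 4.85%. The log2 of Ezh1 over Ezh2 was higher in LSK by 0.68 (0.60 to 0.75), 1.27 (1.18 to 1.36), 0.55 (0.45 to 0.64) and 0.87 (0.78 to 0.96) in the same order. The fractions differ in cell makeup by design: cells with at least 3 UMI of the stem list that passed no other list's minimum made up 57.6% to 83.4% of LSK and 12.8% to 20.8% of LK libraries, after each cell was thinned to 7500 UMI. Within such cells the LSK to LK log2 ratio of Cbx2 was 0.26, 0.55, 0.02 and 0.16, that of Cbx7 was 0.49, 0.82, 0.18 and 0.44, and that of Ezh1 was 0.09, 0.58, 0.15 and 0.38, each below the values over all cells. Bmi1 in these cells was higher in LSK in both P0 pairs. At P14 it stood at 29.2 CPM in LSK against 29.5 in LK in Ifnar+/-, and at 27.6 against 28.5 in Ifnar-/-, with overlapping intervals. The median such cell still held 5 stem list UMI in the LK libraries and 6 to 9 in the LSK libraries. The log2 of Ezh1 over Ezh2 in these cells was higher in LSK by 0.12 (-0.03 to 0.27), 0.62 (0.42 to 0.82), 0.30 (0.11 to 0.49) and 0.47 (0.29 to 0.64), so that in P0 Ifnar+/- the interval included 0.

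Between the genotypes, no core gene was at least 1.5-fold higher in Ifnar-/- in all 4 pairs, against 0% of the 12718 genes tested, and none was at least 1.5-fold lower, against 0.409%. In the 3 pairs without the P0 LSK Ifnar-/- library both counts were again 0, against 0% higher and 0.416% lower of all genes. Ezh1 was lower in Ifnar-/- in LK, with log2 ratios of -0.20 (-0.29 to -0.12) at P0 and -0.21 (-0.31 to -0.11) at P14, and was higher in P0 LSK, at 0.33 (0.25 to 0.41). In P14 LSK its ratio was 0.05 (-0.03 to 0.12). The log2 of Ezh1 over Ezh2 followed, with genotype differences in LK of -0.22 (-0.31 to -0.14) at P0 and -0.24 (-0.35 to -0.14) at P14. In LSK they were 0.37 (0.29 to 0.46) and 0.08 (-0.004 to 0.16). The widest genotype ratio of any core gene was that of Cbx7 in P0 LSK, 0.54 (0.43 to 0.64), from 7.89 CPM in Ifnar+/- to 11.5 CPM in Ifnar-/-.

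The P0 LSK pair is the one with the library that stood apart, in which the stem list summed to 1017 CPM in Ifnar-/- against 547 CPM in Ifnar+/-, and the median over all genes was 0.14. Within the same stem-rich cells the P0 LSK genotype ratio of Cbx7 was 0.28 (0.16 to 0.40), that of Ezh1 was 0.26 (0.17 to 0.36) and that of Ezh1 over Ezh2 was 0.24 (0.14 to 0.34). Whether the differences, over all cells or within the stem-rich cells, came with the makeup of the cells was not tested. Ly6a, the gene for the Sca1 used to sort LSK, was also lower in Ifnar-/- in both LSK pairs. Its part in the genotype differences was not tested. Ezh2, Eed, Suz12 and Ring1 had genotype ratios between -0.08 and 0.09 in the 4 pairs.

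Cells in G2 and mitosis carry RNA of a known set of genes, and 20 of these were summed per cell after thinning to 7500 UMI. Ezh2, Suz12 and Eed were higher in cells with at least 10 UMI of this G2M list than in cells with at most 3, in each of the 8 libraries. For Ezh2 the ratio was 1.48 to 2.32, for Suz12 1.30 to 1.52 and for Eed 1.11 to 1.26. Ezh1 went the other way, at 0.652 to 0.927 times, with an interval below 1 in 7 of the 8 libraries, the exception being P0 LSK Ifnar+/-. Cbx7 at 0.607 to 0.983 and Rnf2 at 0.758 to 0.977 times were also lower in G2M-rich cells, each with an interval below 1 in 7 libraries. Bmi1, Cbx2 and Ring1 had ratios on both sides of 1. These ratios compare shares of RNA, not UMI per cell. Median UMI per cell were higher in the G2M-rich cells of every library, at 57998 against 29730 in P0 LK Ifnar+/-. There Ezh1 had 1813 UMI in 3244 G2M-rich cells and 533 UMI in 1430 G2M-poor cells, so its lower share did not mean fewer UMI per cell. The share of all genes that differ between the classes is not given here. The marker lists moved with these classes. In P0 LK the median cell held 4 (Ifnar+/-) and 5 (Ifnar-/-) UMI of an erythroid list when G2M-rich and 0 when G2M-poor, and 2 against 5 UMI of a neutrophil list in both genotypes. In P14 LK the erythroid medians were 1 and 2 against 1 and 1. In LSK the stem list medians were 3 to 6 UMI in G2M-rich and 5 to 10 in G2M-poor cells. The part of these shifts in the G2M contrasts was not tested.

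For Ezh2 the contrast was wider in LSK, where cells with at most 3 G2M UMI held 93.9 to 115 CPM and cells with at least 10 held 214 to 240 CPM, than in LK, where they held 126 to 143 and 194 to 219 CPM. In the G2M-poor cells the 4 LK libraries lay above the 4 LSK libraries, and in the G2M-rich cells the ranges overlapped. Cbx2 split by fraction too: its log2 ratios of G2M-rich to G2M-poor cells were -0.97, -1.07, -0.54 and -0.53 in the LK libraries and -0.04 to 0.22 in the LSK libraries. Among the LK libraries the lowest ratios were those of P0, where the erythroid list also differed most between the classes. Cbx2 stood at 1.39 and 1.46 CPM in P0 LK cells rich in erythroid RNA. In P14 LK, with Cbx2 ratios of -0.54 and -0.53, the median cell held 1 and 2 erythroid list UMI when G2M-rich and 1 and 1 when G2M-poor. The part of erythroid cells in the Cbx2 contrast was not tested.

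**Figure D4:**
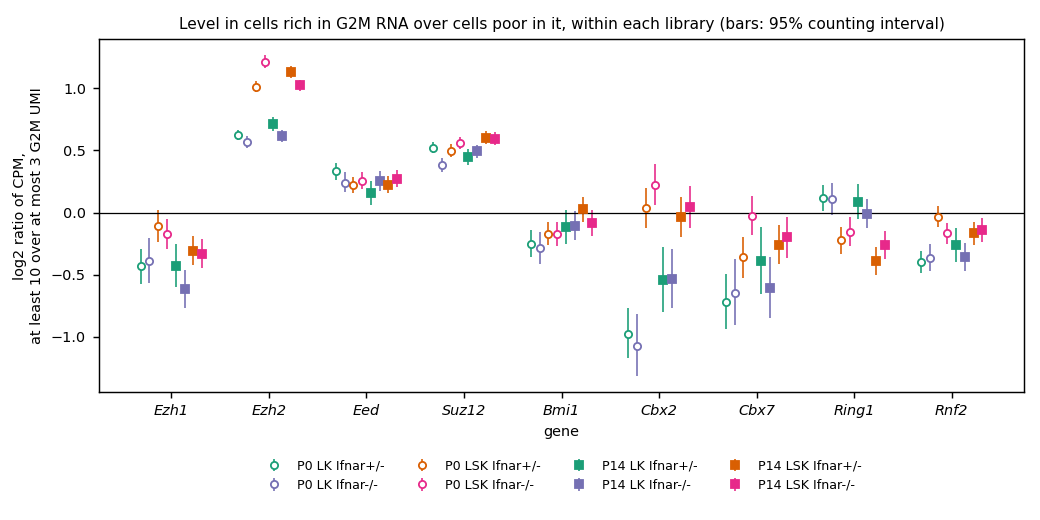
Log2 ratio of CPM between cells with at least 10 and cells with at most 3 UMI of the G2M list (vertical axis) for the 9 genes (horizontal axis), 1 point per library with its exact 95% counting interval; open circles are P0 and filled squares P14. Ezh2, Eed and Suz12 lie above 0 in all 8 libraries, and Ezh1, Cbx7 and Rnf2 lie below 0 in all 8.

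The share of cells with at most 3 G2M UMI differed with age as well. In LK it was 24.3% and 21.5% at P0 and 34.1% and 34.0% at P14, Ifnar+/- first, and in LSK it was 39.3% and 44.6% at P0 and 49.4% and 49.99% at P14. Summed over all cells, the G2M list went from 2126 to 2389 and from 2169 to 2365 CPM in LK, Ifnar+/- first. In LSK it went from 2544 to 2655 and from 2760 to 2655 CPM. The age difference of the Ezh1 to Ezh2 ratio was also read within each class. In cells with at most 3 G2M UMI the Ezh1 share was 8.79% and 7.32% in P0 LK and 12.1% and 10.6% in P14 LK, and 13.1% and 18.0% in P0 LSK and 17.7% and 17.6% in P14 LSK. The log2 of Ezh1 over Ezh2 in these cells was higher at P14 by 0.52 (0.32 to 0.71) in LK Ifnar+/-, 0.59 (0.39 to 0.80) in LK Ifnar-/- and 0.52 (0.38 to 0.66) in LSK Ifnar+/-, and by -0.04 (-0.18 to 0.10) in LSK Ifnar-/-. In cells with at least 10 G2M UMI the 4 values were 0.43 (0.31 to 0.55), 0.32 (0.19 to 0.44), 0.20 (0.09 to 0.31) and -0.005 (-0.118 to 0.109). The part of the G2M class shares in the age difference over all cells was not tested. In 3 pairs the intervals lay above 0 in both classes, and in LSK Ifnar-/- they included 0 in both. In that pair Ezh2 in the low class went from 93.9 CPM at P0 to 115 CPM at P14, and Ezh1 from 20.6 to 24.5 CPM. These classes are ranges of a score: 253 to 586 cells per library held 3 or 4 G2M UMI and 40 to 362 held 9 or 10.

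Cells rich in RNA of 1 marker list were taken as ranges, not as cell types, after thinning to 7500 UMI: at least 3 UMI of the stem list, 5 of a lymphoid list, 50 of a neutrophil list or 20 of an erythroid list, leaving out cells that passed 2. Within each LK library Ezh1, Cbx2 and Cbx7 were lower in the neutrophil and erythroid ranges than in the stem and lymphoid ranges, and Ezh2 was lowest in the neutrophil range. The lymphoid and erythroid intervals overlapped for Cbx7 in all 4 LK libraries, with 9 to 44 UMI behind the lymphoid values, as did the lymphoid and neutrophil intervals of Cbx7 in P0 LK, and the first pair also overlapped for Ezh1 in P0 LK Ifnar-/-. Ezh1 stood at 13.2 to 22.8 CPM in the stem range over 8 libraries, 9.97 to 21.4 in the lymphoid range over 7, and 5.74 to 8.88 and 6.88 to 11.0 in the neutrophil and erythroid ranges over the 4 LK libraries. Ezh2 stood at 166 to 190.2, 201 to 219, 141 to 157 and 193 to 209 CPM in the same 4 ranges. Cbx2 was highest in the lymphoid range, at 12.0 to 16.1 CPM against 7.93 to 11.6 in the stem range, and Cbx7 was highest in the stem range, at 7.22 to 12.8 CPM against 3.45 to 8.08 in the lymphoid range. The stem and lymphoid intervals of Cbx2 overlapped in both P0 LK libraries, P14 LK Ifnar+/- and P14 LSK Ifnar-/-. Those of Cbx7 overlapped in P0 LK Ifnar-/- and both P14 LK libraries.

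**Figure D5:**
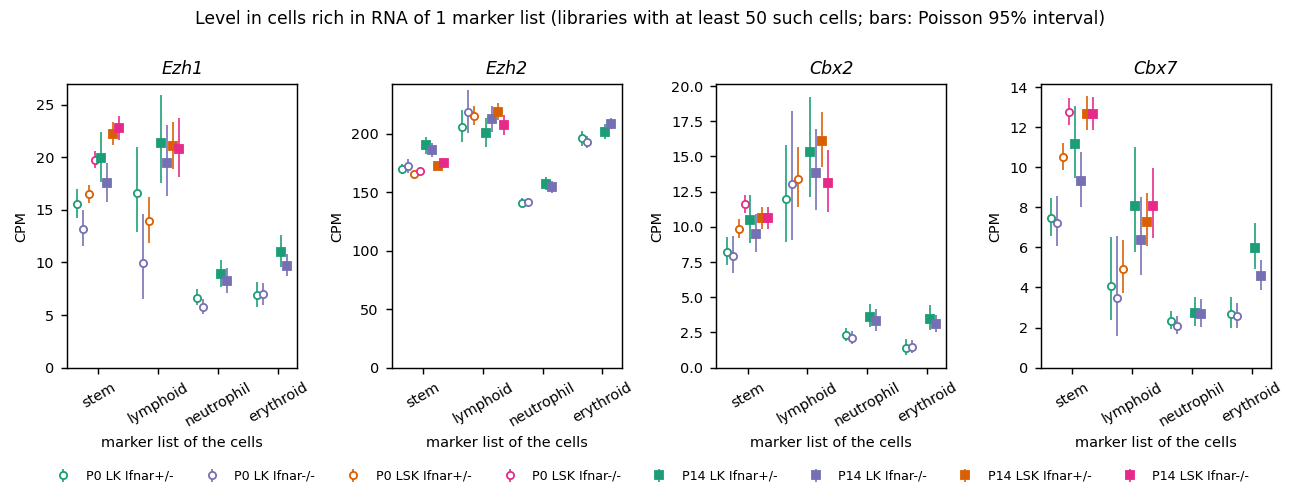
CPM (vertical axis, linear from 0) of Ezh1, Ezh2, Cbx2 and Cbx7 in cells rich in RNA of the stem, lymphoid, neutrophil or erythroid list (horizontal axis), 1 point per library with at least 50 such cells, with its exact Poisson 95% interval; open circles are P0 and filled squares P14. Ezh1, Cbx2 and Cbx7 have their lowest values in the neutrophil and erythroid cells, and Ezh2 in the neutrophil cells.

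The makeup of the libraries moved with age: summed stem list RNA was 144 and 121 CPM in P0 LK and 196 and 177 CPM in P14 LK, and summed lymphoid list RNA was 69.8 and 62.5 CPM in P0 LK and 159 and 149.6 CPM in P14 LK. In LSK the stem list went from 547 to 662 CPM in Ifnar+/- and from 1017 to 697 CPM in Ifnar-/-, and the lymphoid list from 254 and 205 CPM to 443 and 374 CPM. The neutrophil list went from 3529 to 4193 CPM in LK Ifnar+/-, from 4424 to 3150 in LK Ifnar-/-, from 800.2 to 476 in LSK Ifnar+/- and from 463 to 426.5 in LSK Ifnar-/-. The summed erythroid list went from 961 to 1053 CPM in LK Ifnar+/- and from 1099 to 1315 in LK Ifnar-/-, and in LSK from 89.0 and 119 to 53.03 and 53.0 CPM. A monocyte list of 5 genes went from 96.1 to 116 and from 97.0 to 65.0 CPM in LK, and from 61.5 to 30.6 and from 18.9 to 21.0 CPM in LSK, Ifnar+/- first. Cells of the erythroid range made up 4.33% and 8.03% of LK at P0 and 12.9% and 15.1% at P14. A megakaryocyte list of 6 genes went from 70.6 and 44.8 CPM to 221 and 218 CPM in LK, and from 41.4 and 44.6 to 55.9 and 62.6 CPM in LSK. A mast cell and basophil list of 5 genes went from 55.7 and 57.7 to 121 and 78.9 CPM in LK. In LSK it went from 7.63 to 17.9 CPM in Ifnar+/- and from 27.4 to 9.57 CPM in Ifnar-/-. The part of these lists in the age differences of the core genes was not tested beyond the ranges that follow, none of which is a megakaryocyte or mast cell range. Inside the stem range, the log2 of Ezh1 over Ezh2 was higher at P14 by 0.20 (-0.02 to 0.42) in LK Ifnar+/-, 0.30 (0.05 to 0.54) in LK Ifnar-/-, 0.37 (0.27 to 0.48) in LSK Ifnar+/- and 0.14 (0.04 to 0.24) in LSK Ifnar-/-. The LK values were thus under those over all LK cells. The LSK Ifnar-/- value depends on the minimum that sets the range: doubling it gave 0.40, and 0.41 in LSK Ifnar+/-. In the lymphoid range the difference was 0.41 (-0.05 to 0.86) in LK Ifnar+/-, 1.01 (0.39 to 1.63) in LK Ifnar-/- and 0.57 (0.30 to 0.85) in LSK Ifnar+/-, with 46 cells too few in P0 LSK Ifnar-/-. In the LK libraries it was 0.26 (-0.01 to 0.53) and 0.40 (0.12 to 0.68) in the neutrophil range and 0.64 (0.31 to 0.96) and 0.37 (0.10 to 0.63) in the erythroid range. All 11 values lay above 0, and 8 of their intervals excluded it.

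The age differences of Cbx2 and Cbx7 in LK varied with the range of cells. In the stem range Cbx2 had log2 ratios of 0.35 (0.05 to 0.64) and 0.26 (-0.06 to 0.58) in LK, Ifnar+/- first, under the 0.68 and 0.73 over all LK cells. In the lymphoid range it had 0.35 (-0.18 to 0.90) and 0.07 (-0.49 to 0.70), and in the neutrophil range 0.64 (0.20 to 1.07) and 0.65 (0.19 to 1.10). Cbx7 had ratios of 0.58 (0.28 to 0.88) and 0.37 (0.04 to 0.70) in the stem range, 0.96 (0.13 to 1.90) and 0.82 (-0.17 to 2.10) in the lymphoid range and 0.24 (-0.24 to 0.71) and 0.36 (-0.13 to 0.85) in the neutrophil range. In the erythroid range Cbx2 went from 1.39 and 1.46 CPM at P0 to 3.47 and 3.08 CPM at P14, with log2 ratios of 1.31 (0.65 to 2.04) and 1.06 (0.53 to 1.64), and Cbx7 went from 2.67 and 2.56 to 5.97 and 4.58 CPM, with ratios of 1.15 (0.67 to 1.68) and 0.83 (0.42 to 1.27). In the stem range of LSK Ifnar+/-, Cbx2 had a ratio of 0.11 (-0.04 to 0.25) and Cbx7 of 0.27 (0.14 to 0.40), under the 0.25 and 0.47 over all cells. In that of LSK Ifnar-/-, Cbx2 and Cbx7 had ratios of -0.13 (-0.264 to -0.0023) and -0.01 (-0.13 to 0.11). Rnf2 in the stem range was at 0.01 and -0.15 in LK, where both intervals included 0, and at -0.08 (-0.154 to -0.0017) and -0.30 (-0.37 to -0.23) in LSK. Between 367 and 1161 cells per library lay at or 1 UMI under the minimum of the stem range.

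Per cell, Ezh1 was sparse. After thinning to 7500 UMI, 7.57% and 6.05% of P0 LK cells, 12.4% and 10.0% of P14 LK cells, 10.3% and 13.2% of P0 LSK cells and 14.3% and 16.1% of P14 LSK cells had at least 1 Ezh1 UMI, Ifnar+/- first in each. For Ezh2 the shares were 61.7% to 70.2%. Unthinned, Ezh1 was seen in 27.0% to 48.8% of cells, and in LSK Ifnar-/- the P0 share of 48.8% exceeded the P14 share of 42.2%, with median depths of 36534 and 25647 UMI. Cells with both UMI made up 4.74% and 4.20% of P0 LK and 8.63% and 7.13% of P14 LK cells, and 6.52% and 7.55% of P0 LSK and 8.06% and 9.30% of P14 LSK cells. These are shares of cells with a UMI and not of expressing cells, and no cell type that should lack Ezh1 or Ezh2 was at hand to measure background. In barcodes of at most 100 UMI, which hold free RNA, Ezh1 stood at 8.07 to 18.9 CPM.

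The wider pathway was read from 4 lists. Of 9 PRC2 accessory genes, Ezhip (under its older symbol AU022751) had 0 UMI in all libraries and 8 were tested; none was past 1.5-fold in all 4 age pairs in either direction. Aebp2, Mtf2, Phf1 and Phf19 were above 0 in all 4 pairs and Epop below, against 33.3% and 22.7% of all genes. Of 18 other PRC1 genes none was past 1.5-fold in all 4 age pairs (without the P0 LSK Ifnar-/- library 1 was, Cbx8, near the 6.67% of all genes), 7 were above 0 in all 4 (Bcor, Bcorl1, Cbx8, Pcgf5, Phc3, Rybp and Scmh1) and Phc2 was below. Of 5 genes of opposing enzymes none was past 1.5-fold, Asxl1 and Asxl2 were above 0 in all 4 pairs and Bap1 below. In the 3 pairs without the P0 LSK Ifnar-/- library 5 PRC2 accessory genes, 11 other PRC1 genes and 2 of the opposing genes were above 0, and 1 of each list was below, against 48.9% and 25.0% of all genes. Genes of these lists are named after their values were seen. Cbx8, another chromodomain subunit of PRC1, stood out on its list with log2 ratios of 1.29, 0.90, 0.85 and 0.50, going in LK from 2.98 and 3.38 CPM to 7.26 and 6.31 CPM, and in LSK from 6.46 and 8.61 CPM to 11.6 and 12.2 CPM. Cdkn2a and Cdkn2b, cell cycle inhibitors silenced by Polycomb in many cell types, had 0 to 2 and 0 to 22 UMI per library and were too few to compare.

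Between the fractions, 1 of 8 PRC2 accessory genes (Phf1), 4 of 18 other PRC1 genes (Cbx6, Cbx8, Phc1 and Scmh1) and 1 of 5 genes of opposing enzymes (Kdm6b, a demethylase of the mark) were at least 1.5-fold higher in LSK in all 4 pairs, near the 20.5% of all genes. Of the 18 other PRC1 genes 1 was lower, against 4.43% of all genes. Without the P0 LSK Ifnar-/- library these same genes passed in the 3 pairs left. That gene was L3mbtl2, a subunit of a variant PRC1, which went from 25.3 to 27.3 CPM in LK to 15.8 to 17.3 CPM in LSK. Between the genotypes no gene of the 4 lists passed, with or without that library.

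By the root mean square difference of centred log2(CPM + 1) over the 8 libraries, among 13151 other genes, the 5 genes with a pattern closest to Ezh1 were Xiap, Prkacb, Zfp810, Chd6 and Lyst, at 0.03 to 0.04. Xiap went from 26.6 CPM in the lowest to 70.5 CPM in the highest library, with log2 age ratios of 0.63, 0.65, 0.48 and 0.18, beside 0.63, 0.62, 0.46 and 0.18 for Ezh1. Closest to Ezh2 were Rpl24, Eif4h, Churc1, Rps20 and Rpl26, at 0.02 to 0.03. Rpl24 ranged from 2438 to 2799 CPM. Over the 7 libraries without P0 LSK Ifnar-/-, 3 of the 5 genes closest to Ezh1 (Xiap, Prkacb and Zfp810) and 1 of the 5 closest to Ezh2 (Rpl24) stayed among the 5 closest.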

How the data were processed

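RNA was read from 8 CITE-seq libraries, 1 per group. The authors deposited raw UMI counts per gene and barcode, without normalization or cell filter; the 10 antibody tags were not used. Per the submitters' processing notes the reads were processed with Cell Ranger 6.0.1 and mm10, while the file headers name Cell Ranger 4. The annotation and strand setting are not given in the sources used here. Gene positions came from RefSeq for GRCm38.p6, the same build.

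Counts of kept cells were summed per library and scaled to CPM. Log2 ratios of CPM had 0.5 counts added, with exact conditional binomial intervals. Levels had Poisson and shares Clopper-Pearson intervals. Differences of log2(Ezh1/Ezh2) and of log2(Cbx7/Cbx2) had no counts added, and their intervals were normal approximations from the UMI counts. All intervals were at 95%. A gene was called at 1.5-fold. TMM factors came from edgeR 4.0.16 in R 4.3.3; median-of-ratios factors were computed in numpy 2.4.6. No doublet caller was run; leaving out the 5% of cells with most UMI was an alternative. Cells were thinned to 7500 UMI for lists and detection. The steps were tested on simulated counts.

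The members and lists were chosen with earlier results of these data known. Named by rule were the 9 genes, list genes past 1.5-fold in all 4 age pairs, Kit, Ly6a, Ifnar1 and the 5 genes most like Ezh1 and Ezh2; any other gene was named after its values were seen. Alternatives covered cell rules, scaling, weighting, free RNA, cell classes, folds and minimums.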

Additional observations from a re-analysis of the deposited data

Results flagged for a closer look

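Rnf2 differed in direction between the fractions: its mean log2 ratio of P14 to P0 was 0.10 over the 2 LK pairs and -0.18 over the 2 LSK pairs, 0.279 apart, each LK pair lying above 0 and each LSK pair below. The difference was not tested, and under TMM and median-of-ratios scaling all 4 ratios were below 0.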

How the results depend on the processing

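The age difference of log2(Ezh1/Ezh2) stayed above 0 in all alternatives tried except LSK Ifnar-/- in cells with at most 3 G2M UMI (-0.041) and at least 10 (-0.0047); for these and the values below, the cause was not tested. In LK Ifnar+/- it moved to 0.43 in cells with at least 10 G2M UMI, 0.20 in the stem range, 0.41 in the lymphoid, 0.26 in the neutrophil, 0.64 in the erythroid and 0.24 in stem range cells with at most 3 G2M UMI, a class chosen after seeing the data. In LK Ifnar-/- the same classes gave 0.32, 0.30, 1.01, 0.40, 0.37 and 0.35, and equal weight per cell 0.64. In LSK Ifnar+/- it was 0.31 in cells with at least 15000 UMI, 0.49 with equal weight per cell, 0.52 and 0.20 in cells with at most 3 and at least 10 G2M UMI, 0.57 in the lymphoid range and 0.53 in stem range cells with at most 3 G2M UMI. Of the 4 values in stem range cells with at most 3 G2M UMI, the intervals of LK Ifnar+/- (-0.12 to 0.59), LK Ifnar-/- (-0.04 to 0.74) and LSK Ifnar-/- (0.07, -0.08 to 0.23) included 0. Doubling the stem minimum took LSK Ifnar-/- from 0.14 to 0.40.

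Genes past the fold in all 4 age pairs numbered 765, and 1784 with a limit of 25% higher or lower, 279 at 2-fold, 471 with at least 200 UMI and 1267 in the 3 pairs without the P0 LSK Ifnar-/- library, an alternative added after seeing the data. They split 426 higher to 339 lower, against 363 to 440 under TMM and 354 to 457 under median-of-ratios scaling. The core genes among them numbered 0 under each alternative. In the fraction pairs 2 core genes passed, against 20.5% of all genes higher in LSK. Under median-of-ratios scaling 1 passed, against 13.9%, and with equal weight per cell 1 passed, against 16.4%. With the 25% limit 4 core genes passed, at 2-fold 0 and in the stem range 0. The shares of all genes at these last settings are not given here, so those counts have no background. Over all genes the split was 2736 to 590, against 1964 to 1014 under TMM and 1848 to 1127 under median-of-ratios scaling.

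Of 32 single-gene age ratios whose interval excluded 0, 7 changed sign under TMM, all in Ezh2, Eed, Suz12 or Rnf2. Cbx2 in LK Ifnar-/- was -0.17 in stem range cells with at most 3 G2M UMI. The Ezh1 share of cells in LSK Ifnar-/- was 2.93 points higher at P14 when thinned to 7500 UMI and lower unthinned (-6.61 points), and the Ezh2 share in LSK Ifnar+/- was lower when thinned to 7500 UMI (-2.95 points) and 0.875 points higher when thinned to 3000 UMI. No paired analysis was possible because the groups compared share fewer than 2 replicate numbers; a fit of age with fraction and genotype as terms over the 8 libraries was not run. Ezh1, Cbx2 and Cbx7 are the genes whose low counts limit precision most.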
